A study of Arabidopsis thaliana with 2 samples.

Results

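The 35 genes described here make, decorate, store and regulate flavonols and anthocyanins in *Arabidopsis*. They were taken by locus from a table of 33602 genes and cover the entry enzymes, the core flavonoid pathway, the glycosyl- and acyltransferases, transport, and the MYB, bHLH and other regulators. The table compares Col-0, the wild type, with *35S:SsCBF1-11*, which is Col-0 carrying *SsCBF1*, a cold-response transcription factor gene of the nightshade *Solanum lycopersicoides*, under the constitutive CaMV35S promoter. The transgenic plants are 1 line (#11). Each genotype is 1 library, for which the aboveground parts of 20 plants aged 4 weeks were pooled after growth without stress at 22°C under 16 h of light and 8 h of darkness. No difference therefore has a replicate check, and every test below compares the reads of 2 libraries and not the genotypes.

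Flavonoids start from phenylalanine, which PAL and C4H convert into the precursors of all phenylpropanoids. Chalcone synthase makes the first flavonoid, the early enzymes lead to dihydroflavonols, and there the pathway splits. FLS1 turns dihydroflavonols into flavonols, the ultraviolet screens of the leaf, whereas DFR and LDOX lead to the red anthocyanins. Flavonol genes are switched on by MYB11, MYB12 and MYB111, and the late anthocyanin genes by complexes of a MYB protein such as PAP1, a bHLH protein such as TT8 and the WD40 protein TTG1. Cold and high light are known to raise anthocyanins in *Arabidopsis*.

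The table holds 9120358 Col-0 reads and 6669454 of *35S:SsCBF1-11*, so that the transgenic library has 42.2% of all reads. Of the 35 members, 34 had at least 1 read, 30 had at least 20 reads in both libraries together, 4 had fewer, and *TT12* had none. *MYB113* reached 20 reads only through the transgenic library. Reads were compared with the library shares by a two-sided exact binomial test over all 22319 genes with reads (Benjamini-Hochberg adjustment). Calls needed an adjusted p below 0.001 together with more than a 2-fold difference. Ratios are reads over the library total, *35S:SsCBF1-11* over Col-0, with exact 95% intervals for counting error only. The authors' RPKM values (reads scaled by the length of the gene model and by the library total) serve to compare levels between genes.

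The aerial parts were checked against markers of the organs they can hold. The 6 leaf markers, among them *RBCS1A* with 134636 and 112764 reads, were abundant in both libraries. At an adjusted p under 0.05, 5 of the 6 were higher in the transgenic one, beside 11.9% of genes with at least 300 reads. At the depth of these markers small differences pass, as for *RCA* at a ratio of 1.09. *RBCS1A* had a ratio of 1.15 (1.14 to 1.15), and *GAPB* did not pass. The largest ratio was that of *LHCB1.3*, at 1.79 (1.77 to 1.81). The median log2 ratio of the 6 markers was 0.15. Their summed level, which includes *LHCB1.3*, had a ratio of 1.23. The 13 markers of anther and tapetum had 395 reads together in Col-0 (35.5 RPKM) and 9 in *35S:SsCBF1-11* (1.08 RPKM), 10 of the 13 being at 0 reads in the latter, *GRP17*, *GRP19* and *ATA27* among them. By both thresholds 5 of the 13 were called lower (0.838% of all genes). The others had 2 to 12 reads in Col-0, so that a 0 beside them says little. The 7 markers of the stem secondary wall had 533 and 164 reads, *FLA11* having 124 and 39, and none was at 0. The 6 seed markers had 2 and 0 reads. The transgenic library thus held fewer reads of these anther and stem genes and a larger share of leaf marker reads, and the part of these differences in the ratios given for the pathway was not tested. In bulk samples, fewer cells of a type and less RNA per cell cannot be told apart.

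The summed level of the 35 genes was 1217 RPKM in Col-0 and 1235 RPKM in *35S:SsCBF1-11*, a sum in which *CHS* alone has 362 and 364 RPKM and genes of both directions offset each other. Among the 30 members with at least 20 reads, 25 differed by less than 1.5-fold, as did 83.9% of all genes with as many reads, so that this share is near the background. Their median log2 ratio was 0.05 (0.04 without *MYB113*), beside -0.07 for all genes with as many reads. By both thresholds 1 member was called higher, *MYB113*, where 0.533% of all genes were called, and 0 members were called lower, where 0.838% of all genes were called. At an unadjusted p under 0.05 the binomial test gave 7 higher members (7.71% of all genes) and 3 lower members (13.5% of all genes), and under both thresholds edgeR's exact test at a preset coefficient of variation of 0.1 also called 1 higher and 0 lower. At an adjusted p under 0.05 with no fold threshold, 6 members were higher (4.5% of all genes) and 2 were lower (7.18% of all genes). With the preset coefficient of 0.1 only *MYB113* of these 8 passed the same limit. Members are more deeply covered than most genes. Among genes with at least 300 reads, a limit chosen after the values were seen, 5 of 16 members were higher (11.9% of such genes) and 2 were lower (15.5%).

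**Figure D1:**
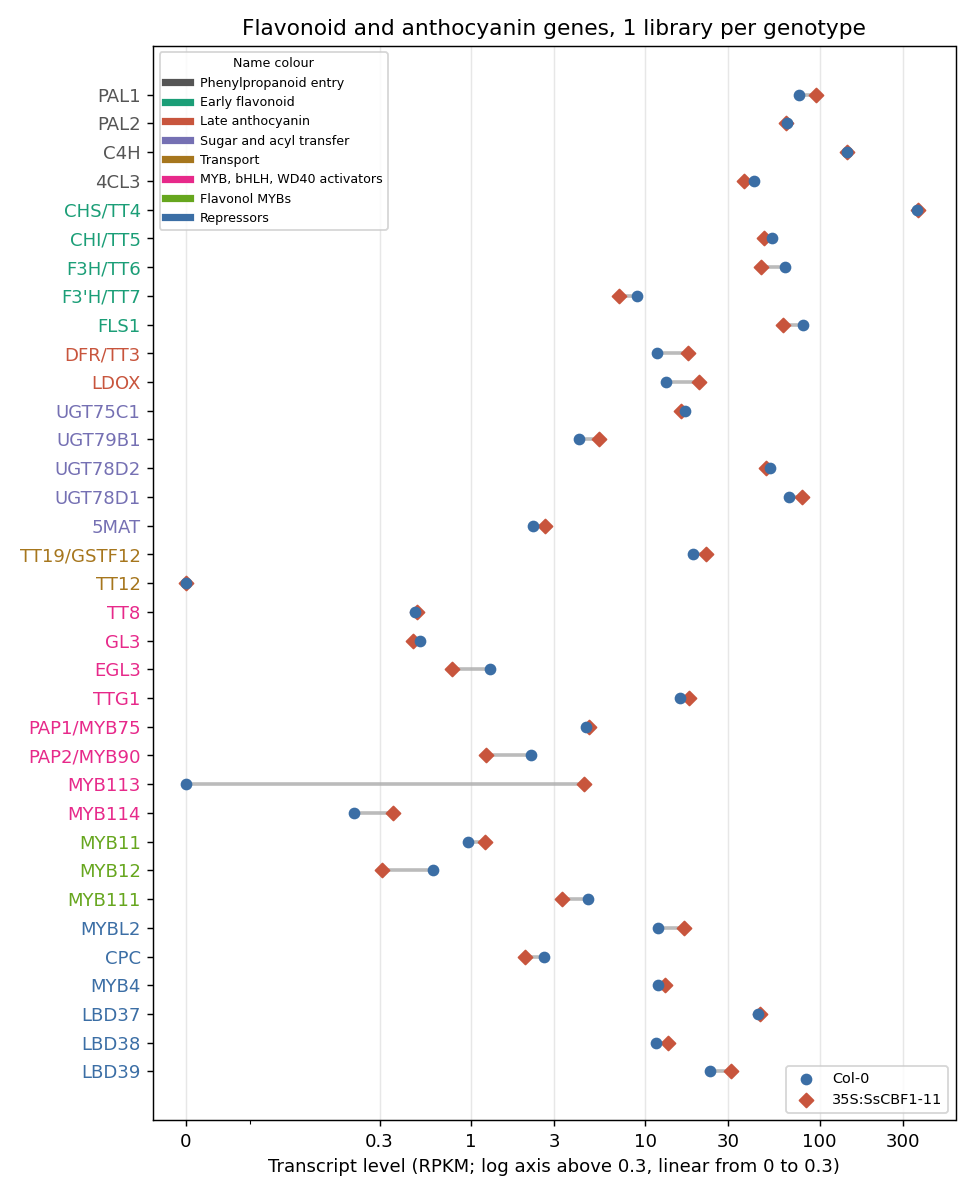
Level of each of the 35 genes in RPKM (log axis above 0.3, linear below) in the Col-0 library (circles) and the 35S:SsCBF1-11 library (diamonds), with gene names coloured by role. CHS stands highest at about 362 and 364 RPKM, the activators of the MYB and bHLH families lie mostly under 5 RPKM, and only MYB113 runs from 0 to a measured level.

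SsCBF1 belongs to the CBF family, which is known to bind the C-repeat core CCGAC, and the bases upstream of the members were therefore searched for it on both strands. The window was the 500 bases before each annotated gene start in TAIR10.1. CCGAC was found for 2 of the 35 members (5.71%), beside 21.4% of all 27444 nuclear protein-coding genes. The palindrome CACGTG, the G-box known as a site of bZIP proteins such as HY5, was found for 9 members (25.7%), beside 9.35% of all genes, in *CHS*, *F3H*, *DFR*, *LDOX*, *UGT79B1*, *PAP2*, *MYB114*, *MYB12* and *LBD39*. The windows of *MYB113*, *FLS1* and *PAL1* held neither. Also searched were ACCTACC, found for 1 member (2.86%), beside 2.12% of all genes, and ACCAACC, found for 2 members (5.71%), beside 5.24%. The sites below are both copies of CCGAC and the G-boxes of an early gene that was level, an early gene that was lower and a late gene that was higher. Capitals mark the motif, read 5′ to 3′ on the strand given, and all are from the RefSeq genome sequence of TAIR10.1.
*UGT75C1*, chr4:8123977-8124001, plus strand: tatgtgacgaCCGACgagtaacagc
*MYB12*, chr2:19476119-19476143, plus strand: cctgcacggaCCGACcacgagtctc
*CHS*, chr5:4488233-4488258, plus strand: gttaagtatgCACGTGtaagaactgg
*F3H*, chr3:19024933-19024958, plus strand: atgtctccgcCACGTGatttctccac
*LDOX*, chr4:12006496-12006521, minus strand: tagaggtgaaCACGTGgagacacgct
The core of *UGT75C1* opens 156 bases before the gene and lies on the strand opposite to it, and that of *MYB12* opens 197 bases before the gene. Neither gene passed the test, at ratios of 0.953 and 0.513 (0.0876 to 2.14). The G-boxes of *CHS*, *F3H* and *LDOX* open 233, 249 and 302 bases before their genes. A match is a string of letters and not a measured site, and no match says only that these letters are not in the window.

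The entry steps were abundant and mostly level. *C4H* (AT2G30490), which hydroxylates cinnamate, had 2346 reads in Col-0 and 1717 in the transgenic library, a ratio of 1.0 (0.940 to 1.07). *PAL2* (AT3G53260), the second major phenylalanine ammonia-lyase gene, had 1500 and 1077 reads, a ratio of 0.982 (0.907 to 1.06). In contrast to these, *PAL1* (AT2G37040; chromosome 2, 15557367 to 15560755) had 1744 and 1603 reads, and its ratio of 1.26 (1.17 to 1.35) passed the test by p alone (adjusted p = 2.41e-09, exact binomial test). Within each library there were 116 reads of *PAL1* per 100 of *PAL2* in Col-0 (108 to 125) and 149 in *35S:SsCBF1-11* (138 to 161), a measure that needs no scaling between libraries. The transcripts of this pair share 0 stretches of 100 bases and 31 of 50 bases, and how reads that match several genes were counted is not given in the sources at hand. *4CL3* (AT1G65060), the 4-coumarate:CoA ligase that serves flavonoids, had 736 and 470 reads, a ratio of 0.873 (0.776 to 0.982) with an adjusted p of 0.138, and 0.0482 when totals were taken over nuclear protein-coding genes alone.

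Among the early flavonoid enzymes *CHS* (*TT4*, AT5G13930; chromosome 5, 4488476 to 4490264) was the most abundant member in both libraries. It had 4927 reads in Col-0 and 3622 in the transgenic library, that is 362 and 364 RPKM, and its ratio was 1.01 (0.963 to 1.05), and it did not pass the test. *CHI* (*TT5*), which closes the flavanone ring, had 453 and 296 reads, a ratio of 0.894 (0.769 to 1.04). *F3′H* (*TT7*), which adds the hydroxyl group that separates quercetin from kaempferol, had 151 and 87 reads, a ratio of 0.788 (0.598 to 1.03). Neither of these passed the test. *F3H* and *FLS1* were lower. *FLS1* (AT5G08640; chromosome 5, 2803833 to 2805606) makes the main flavonol synthase and had 975 reads in Col-0 against 547 in the transgenic library, a ratio of 0.767 (0.690 to 0.853) with an adjusted p of 1.67e-05 by the exact binomial test. *F3H* (*TT6*, AT3G51240; chromosome 3, 19025192 to 19026872), which makes dihydroflavonols, had 875 and 465 reads, a ratio of 0.727 (0.648 to 0.814) with an adjusted p of 6.86e-07 by the exact binomial test. The *F3H* value carries a limit, since a long noncoding RNA gene on the opposite strand, AT3G51238, shares 1588 bases with it in the annotation and has 675 and 332 reads in the same table. The strand setting of the counting is not given in the sources used here, so that the reads of this pair cannot be told apart. *FLS1* overlaps no annotated gene.

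The late anthocyanin enzymes *DFR* and *LDOX* stood the other way, whereas the anthocyanin glycosyl- and acyltransferase genes given below did not pass the test. *DFR* (*TT3*, AT5G42800; chromosome 5, 17164093 to 17166032), which commits dihydroflavonols to anthocyanins and tannins, had 145 reads in Col-0 and 160 in the transgenic library, a ratio of 1.51 (1.20 to 1.90) with an adjusted p of 0.0053 by the exact binomial test. *LDOX* (AT4G22880; chromosome 4, 12004726 to 12006209), which makes the coloured anthocyanidin, had 151 and 171 reads, a ratio of 1.55 (1.24 to 1.94) with an adjusted p of 0.00159 by the exact binomial test. Both were higher at an adjusted p under 0.05 by this test, and neither passed the p threshold or the fold threshold of a call. The summed level of the pair was 24.9 RPKM in Col-0 and 38.1 RPKM in *35S:SsCBF1-11*, that of the 5 early genes (*CHS*, *CHI*, *F3H*, *F3′H* and *FLS1*) 569 and 527 RPKM.

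The balance of *DFR* and *LDOX* over early transcripts can be read inside each library, without any scaling. The anthocyanin genes *UGT75C1* (ratio 0.953), *UGT79B1* (1.3), *5MAT* (1.17) and *TT19* (1.19) were not counted as late here. A balance that includes them was not computed. Col-0 had 4.01 reads of *DFR* and *LDOX* per 100 reads of the 5 early genes (3.56 to 4.50), and *35S:SsCBF1-11* had 6.60 (5.89 to 7.38). The transgenic library was thus 1.65-fold higher in this balance (1.40 to 1.94). Without *CHS*, which makes up most of the early reads, the values were 12.1 and 23.7 per 100 reads, a ratio of 1.97 (1.65 to 2.34). Without *F3H*, whose reads may include those of its antisense neighbour, they were 4.55 and 7.27, a ratio of 1.60 (1.36 to 1.88). Neither omission was planned, and all these ratios share reads. Single pairs, picked after their values were seen, gave 14.9 and 29.3 reads of *DFR* per 100 of *FLS1*, and 17.3 and 36.8 reads of *LDOX* per 100 of *F3H*. The intervals cover counting error, and no value of the spread between pools is at hand.

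**Figure D2:**
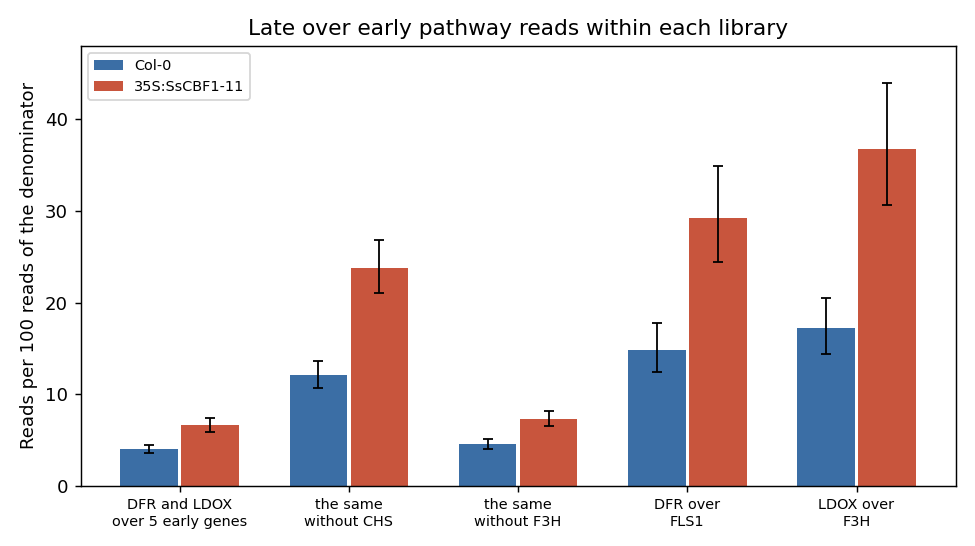
Reads of the late genes DFR and LDOX per 100 reads of early genes within each library, for the 5 early genes together, without CHS, without F3H, and for 2 single pairs, where bars start at 0 and error bars are exact 95% counting intervals. The 35S:SsCBF1-11 bar lies above the Col-0 bar in each of the 5 comparisons, from 6.60 against 4.01 to 36.8 against 17.3. The comparisons share reads and are not independent. Only that of the 5 early genes together was planned, and the 2 pairs were picked after their values were seen.

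Most members that decorate the pigments did not pass the test. *UGT78D1* (AT1G30530), a flavonol rhamnosyltransferase gene, was the exception among them, with 1110 reads in Col-0 against 960 in the transgenic library, a ratio of 1.18 (1.08 to 1.29) with an adjusted p of 0.00241 by the exact binomial test. *UGT89C1*, which also adds rhamnose to flavonols but is not among the 35, was lower, at a ratio of 0.741 (0.677 to 0.809). *UGT78D2*, which attaches glucose to flavonols and anthocyanidins, had 718 and 499 reads, a ratio of 0.950 (0.846 to 1.07). *UGT75C1*, an anthocyanin glucosyltransferase gene, had 254 and 177 reads, a ratio of 0.953 (0.782 to 1.16). Both intervals hold 1. *UGT79B1*, which adds xylose to anthocyanins, had 57 and 54 reads (1.3, 0.876 to 1.91), and the malonyltransferase gene *5MAT* had 28 and 24 (1.17, 0.650 to 2.10). *UGT75C1* overlaps an expressed gene of the opposite strand, AT4G14100, by 230 bases.

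Of the transport genes, *TT19* (*GSTF12*), a glutathione S-transferase that carries anthocyanins towards the vacuole, had 133 reads in Col-0 and 116 in the transgenic library, a ratio of 1.19 (0.922 to 1.54). It shares 108 bases with the opposite-strand gene AT5G17230, which had 2448 and 2192 reads. *TT12*, a vacuolar transporter of the seed coat, had 0 reads in either library, which allows up to 3 reads in each. The tannin genes *BAN*, *TT10*, *TT2*, *TT1* and *TT16* of the seed coat also had 0 reads in both.

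*MYB113* (AT1G66370; chromosome 1, 24753589 to 24754761), a MYB activator of anthocyanin genes, was the single member past both thresholds. It had 0 reads in Col-0 and 22 in the transgenic library, that is 0 and 4.45 RPKM (adjusted p = 2.32e-07, exact binomial test). With the 0 of Col-0 set to the floor of 3 reads it was 10.03-fold higher, a bound that leaves out the counting error of the 22 reads. The exact interval includes that error and starts lower, at 7.49. The gene lies in a row with its relatives *MYB114* (24757298 to 24758953) and *PAP2* (*MYB90*, 24763941 to 24765541) on the plus strand of chromosome 1. These neighbours had few reads. *MYB114* had 1 read in each library, and *PAP2*, which drives anthocyanin synthesis when overexpressed, had 20 and 8, a ratio of 0.547 (0.208 to 1.3). On the other side AT1G66360 had 1 and 0 reads. *PAP1* (*MYB75*, AT1G56650), the relative known best as a master activator of anthocyanin synthesis, had 38 and 29 reads, a ratio of 1.04 (0.621 to 1.74).

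The reads of *MYB113* themselves were not at hand. Its annotated transcript was instead compared with those of its relatives for exact stretches of 100 bases, the length of a read. Of the 844 stretches of 100 bases in its transcript, 0 were found in the transcripts of *PAP1*, *PAP2* or *MYB114*. At 50 bases, 0 of its 894 stretches occurred in any other annotated messenger RNA of the nucleus. The listed length of 741 bases equals the coding exons of the annotated gene, so that its RPKM is per coding length. By edgeR's exact test at a preset coefficient of variation of 0.2 its adjusted p was 0.00179, and at 0.4 it was 0.352.

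The partners of these MYB proteins were scarce or level. *TTG1*, the WD40 scaffold, had 226 reads in Col-0 and 185 in the transgenic library, a ratio of 1.12 (0.917 to 1.37). The bHLH genes *TT8*, *GL3* and *EGL3*, of which *GL3* and *EGL3* also act in leaf hairs, had 8 and 6, 9 and 6, and 25 and 11 reads. At such depths a difference of 2-fold was not detectable, and the interval of *EGL3*, the deepest of the 3, ran from 0.267 to 1.27. The activators of the flavonol branch were also thinly covered. *MYB111* had 56 and 29 reads (0.708, 0.436 to 1.13), *MYB11* had 11 and 10, and *MYB12* had 8 and 3. None passed the test, and their summed level was 6.26 RPKM in Col-0 and 4.83 RPKM in *35S:SsCBF1-11*.

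Repressors of the pathway were better covered. *LBD39*, a LOB-domain repressor of anthocyanin genes that responds to nitrogen, had 213 reads in Col-0 and 206 in the transgenic library, a ratio of 1.32 (1.09 to 1.61) with an adjusted p of 0.0422 by the exact binomial test. It was not past this threshold when totals were taken without the 10 most abundant genes or over nuclear protein-coding genes alone. *MYBL2*, a small MYB protein that displaces activators from the complex, had 106 and 110 reads, a ratio of 1.42 (1.08 to 1.87) with an adjusted p of 0.0797, and 0.0338 to 0.0486 under edgeR's TMM, the upper quartile and DESeq2's size factors. The relatives of *LBD39* were closer to 1. *LBD37* had 670 and 503 reads (1.03, 0.913 to 1.15) and *LBD38* had 109 and 94 (1.18, 0.885 to 1.57). *MYB4*, a repressor of early phenylpropanoid genes, had 138 and 111 reads (1.10, 0.849 to 1.42), and *CPC*, a single-repeat MYB inhibitor, had 14 and 8.

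**Figure D3:**
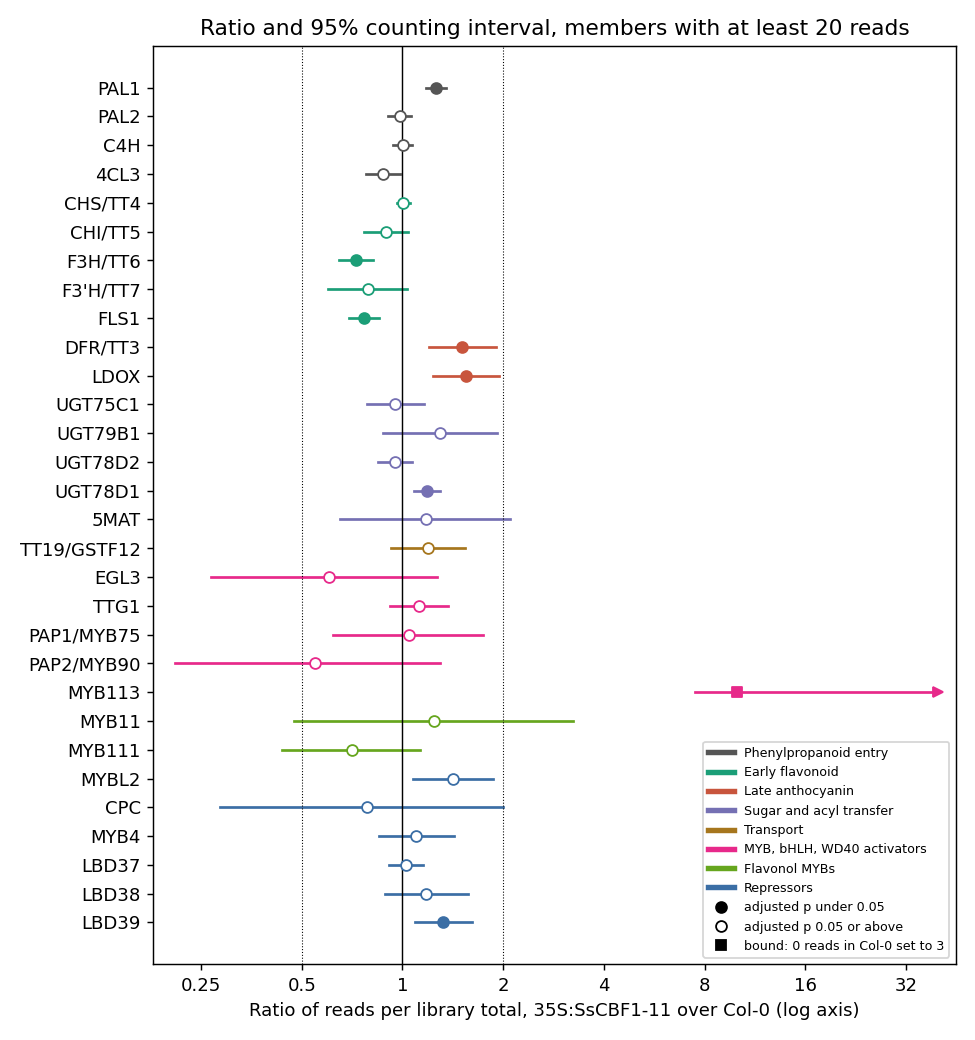
Ratio of reads per library total, 35S:SsCBF1-11 over Col-0, for the 30 members with at least 20 reads (log axis); lines are exact 95% counting intervals, filled symbols have an adjusted p under 0.05, the square is a bound and dotted lines mark 2-fold. FLS1 and F3H lie left of 1 at 0.767 and 0.727, DFR and LDOX right of it at 1.51 and 1.55, and MYB113 is drawn at 10.03, its bound against 3 reads in Col-0, with an exact interval that starts at 7.49.

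A further 41 genes, of the same pathway or of its regulation, were read for comparison. They were listed by function, with earlier results of these data known. Of these, 36 had at least 1 read and 28 had at least 20 reads, with a median log2 ratio of -0.13, beside -0.07 for all genes. Their summed level was 667 RPKM in Col-0 and 605 RPKM in *35S:SsCBF1-11*. By both thresholds 1 was lower and 0 were higher, and at an unadjusted p under 0.05 the binomial test gave 1 higher (7.71% of all genes) and 10 lower (13.5% of all genes). *SPL9*, a phase-change factor that restrains anthocyanin genes, was the called gene, with 92 reads in Col-0 and 26 in the transgenic library, a ratio of 0.386 (0.240 to 0.603) with an adjusted p of 0.000127 by the exact binomial test. At an adjusted p under 0.05 with no fold threshold, 5 were lower (7.18% of all genes) and 1 was higher (4.5% of all genes). *UGT89C1*, which adds rhamnose to flavonols, had 1407 and 762 reads, a ratio of 0.741 (0.677 to 0.809) with an adjusted p of 8.24e-10 by the exact binomial test, beside a ratio of 0.767 for *FLS1*. *HY5*, the light-response bZIP gene, had 188 and 87 reads, a ratio of 0.633 (0.485 to 0.820). The gene that was higher was *KFB50*, which marks PAL proteins for degradation, with 436 and 491 reads, a ratio of 1.54 (1.35 to 1.76) with an adjusted p of 3.17e-09 by the exact binomial test. The other *KFB* genes listed did not pass at an adjusted p under 0.05. *KFB20* had 98 and 46 reads (0.642, 0.442 to 0.920), *KFB01* had 67 and 62 (1.27, 0.881 to 1.81), and *KFB39* had 57 and 57 (1.37, 0.930 to 2.01). *FLS2*, a close relative of *FLS1* with little known activity, had 67 and 19 reads (0.388, 0.220 to 0.653), and *PAL4*, a minor PAL gene, had 91 and 38 (0.571, 0.380 to 0.842). *CHIL*, which assists chalcone synthase, had 1053 and 689 reads, a ratio of 0.895 (0.812 to 0.986) with an adjusted p of 0.142.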

How the data were processed

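RNA from the aerial parts of Col-0 and *35S:SsCBF1-11* plants was sequenced on an Illumina HiSeq platform. TAIR10 (genome build) and CASAVA 1.7 are named in the submitters' processing notes, whereas no source used here names an aligner, and how reads were assigned to genes and strands is likewise not given in the sources used here. Per gene model, the deposited count of reads, made by the authors, was used as it stands. The authors' deposited RPKM values equal reads scaled by listed length and table total in 100% of genes (relative tolerance 1e-06). The authors' columns of fold, log2 fold, q-value and call, and their pathway and ontology names, were not used.

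With 1 library per genotype a quasi-likelihood test could not be fitted, and the exact binomial test was used, with 0.5 reads added for log2 ratios. This test was run on simulated counts that held counting error only, so that its behaviour under further spread between pools was not tested. The call thresholds follow the study's methods. For a gene at 0 the floor was 3 reads. The members and lists were chosen with earlier results of these data known. Every member is named. Of the 41 further genes of the pathway or its regulation, those past either rule are named. *CHIL*, *BAN*, *TT10*, *TT2*, *TT1*, *TT16*, *KFB20*, *KFB01* and *KFB39* were added after their values were seen. Gene positions are from TAIR10.1. Alternatives were other scalings, minima, pseudocounts and thresholds, and edgeR's exact test at a preset coefficient of variation. Python 3.11.15 (numpy 2.4.6, pandas 2.3.3, scipy 1.17.1, matplotlib 3.10.9) and R 4.3.3 (edgeR 4.0.16, DESeq2 1.42.0) were used.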

Additional observations from a re-analysis of the deposited data

How the results depend on the processing

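No paired analysis was possible because each genotype has 1 library, and for the same reason no replicate could be left out. The count of members past both thresholds was 1 higher and 0 lower under every scaling and minimum tried. By edgeR's exact test at a preset coefficient of variation it was 1 higher at 0.1 and 0 higher at 0.2 and 0.4, with 0 lower at each. The 6 higher and 2 lower members at an adjusted p under 0.05 became 1 and 0 at a coefficient of 0.1, 1 and 0 at 0.2, and 0 and 0 at 0.4, and *PAL1*, *F3H*, *FLS1*, *DFR*, *LDOX*, *UGT78D1* and *LBD39* passed at none of the 3 coefficients. Over the scalings this count ran from 5 to 7 higher and from 2 to 3 lower. The median log2 ratio of the members ran from 0.02 to 0.13, and no member past a threshold changed direction. Over all genes the calls were 119 higher and 187 lower, and 136 and 141 with DESeq2's size factors. The balance of *DFR* and *LDOX* over the early genes moved from 1.65 to 1.97 without *CHS*, a choice made after the data were seen. It was 1.60 without *F3H*, a choice that was not planned either. Members under 20 reads, such as *TT8*, *GL3*, *MYB12* and *MYB114*, are limited by depth.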
